A study of Drosophila melanogaster with 4 samples.

Results

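Binding of exex-GFP was examined at 10 genes of glial fate and glial function, out of 13945 protein-coding genes on the main chromosome arms of Drosophila melanogaster. They were gcm, gcm2, repo, pnt, ttk, loco, moody, nrv2, wrapper and Gs2, chosen by symbol, and all 10 were found in the annotation. Each gene was given a window of its body plus 5000 bp on each side, and every peak summit inside that window was counted as the gene's. Of the 10 windows, 9 held at least 1 summit of the replicate-filtered peak list, and gcm held none. The windows together held 39 such summits, of which 15 lay in introns of pnt and 6 in or near Gs2.

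Most glia of the fly embryo arise from neural precursors in which gcm is switched on. The gcm and gcm2 proteins are DNA-binding factors that activate a glial program, and the genes they act on include repo, pnt, ttk and loco. Mature glia then insulate axons, seal the blood-brain barrier and clear transmitter from the neuropil, which is where moody, nrv2, wrapper and Gs2 come in. The factor mapped here, exex, is a homeodomain transcription factor known for specifying motor neurons.

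The series held anti-GFP chromatin immunoprecipitation and sequencing of a transgenic fly line that stably expresses exex with GFP at its C-terminus. Whole embryos of 6 to 24 h were used, so that all embryonic cell types were mixed, and the labels number 4 biological replicates, all of 1 group. No second condition was labelled, and the control experiment that the labels name was not analysed here. The sources used here do not give the site or copy number of the transgene. Peaks in glia and peaks in neurons or other cells cannot be told apart in such material.

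Each replicate and the pooled reads gave a list of 30000 peaks, and the irreproducible discovery rate (IDR) filter, which sets its threshold by how reproducible the ranks are between replicates, left 7909 peaks in 7247 called regions. These were the 7909 strongest pooled peaks, so a listed peak need not rank alike in every replicate. A called region can carry more than 1 summit. Replicate 4 stood apart, with 23.2% of its peaks at q under 0.01, against 43.1%, 39.6% and 46.2% in replicates 1, 2 and 3. Read depth is unknown, since the lists carry no read counts. The signal value of a peak is the authors' own score, so peaks were compared by rank within a list, with rank 1 the strongest. For counts, the 7909 peaks of highest signal stood for each replicate and are called its highest peaks here.

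The DNA under 9 member summits is printed below to show, for 8 of the genes, a summit that the account of the gene uses. For gcm2 and moody another summit than the strongest is shown, because the strongest overlaps an annotated UTR, and none is shown for wrapper. The choice is richer in CTTATC than the whole, with 7 of 9 against 15 of 39 member summits. Each sequence is the 201 bp centred on the summit, from the RefSeq genome, Release 6 (dm6), 5′ to 3′ on the plus strand. Capitals mark TAATTA, the palindromic core site of Antennapedia-type homeodomains, and CTTATC with its reverse complement GATAAG, which hold the core of a GATA site. CTTATC was taken because an earlier description of these same data found it most frequent at summits. Its frequency over all IDR summits is therefore not a separate finding. These motifs were searched on both strands and cannot share a base with each other. Of all 7909 IDR summits, 19.7% held TAATTA within 100 bp and 35.4% held CTTATC on either strand. A match is a description of the letters and not a mapped binding site.
pnt, strongest summit, chr3R:23316935-23317135, plus strand: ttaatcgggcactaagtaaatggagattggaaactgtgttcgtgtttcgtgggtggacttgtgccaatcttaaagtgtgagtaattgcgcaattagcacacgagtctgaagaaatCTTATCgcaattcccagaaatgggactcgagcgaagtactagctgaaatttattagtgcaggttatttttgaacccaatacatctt
pnt, summit with both sites, chr3R:23343045-23343245, plus strand: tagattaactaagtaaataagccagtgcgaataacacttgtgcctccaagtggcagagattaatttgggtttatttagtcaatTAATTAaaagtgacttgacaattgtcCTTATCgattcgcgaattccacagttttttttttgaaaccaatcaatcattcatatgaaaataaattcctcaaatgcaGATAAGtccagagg
gcm2 window, summit in Trx2, chr2L:9614968-9615168, plus strand: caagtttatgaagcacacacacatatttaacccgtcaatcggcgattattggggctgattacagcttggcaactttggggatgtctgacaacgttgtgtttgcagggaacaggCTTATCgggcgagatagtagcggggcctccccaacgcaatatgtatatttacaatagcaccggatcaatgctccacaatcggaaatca
repo window, summit in 14-3-3epsilon, chr3R:18244305-18244505, plus strand: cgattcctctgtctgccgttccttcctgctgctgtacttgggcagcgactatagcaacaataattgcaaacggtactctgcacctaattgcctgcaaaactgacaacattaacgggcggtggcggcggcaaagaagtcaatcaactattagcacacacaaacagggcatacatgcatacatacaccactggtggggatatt
ttk, IDR summit, chr3R:31712359-31712559, plus strand: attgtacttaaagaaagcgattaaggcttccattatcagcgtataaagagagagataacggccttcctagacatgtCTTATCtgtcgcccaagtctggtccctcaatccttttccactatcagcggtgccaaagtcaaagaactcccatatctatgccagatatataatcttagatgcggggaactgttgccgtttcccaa
loco, strongest summit, chr3R:22631251-22631451, plus strand: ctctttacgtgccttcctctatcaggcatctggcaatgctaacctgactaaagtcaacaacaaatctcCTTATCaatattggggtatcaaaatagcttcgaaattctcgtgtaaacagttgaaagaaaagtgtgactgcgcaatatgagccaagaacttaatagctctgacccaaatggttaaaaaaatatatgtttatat
moody, summit at its start, chrX:2050188-2050388, plus strand: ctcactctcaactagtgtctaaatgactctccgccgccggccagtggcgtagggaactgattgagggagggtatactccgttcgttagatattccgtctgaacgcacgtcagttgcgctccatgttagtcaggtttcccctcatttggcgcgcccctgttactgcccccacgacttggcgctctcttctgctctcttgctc
nrv2, summit past its 3′ end, chr2L:6789424-6789624, plus strand: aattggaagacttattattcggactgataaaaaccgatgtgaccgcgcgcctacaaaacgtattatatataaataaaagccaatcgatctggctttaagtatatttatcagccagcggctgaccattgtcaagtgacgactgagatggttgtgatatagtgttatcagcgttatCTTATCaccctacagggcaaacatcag
Gs2, strongest summit, chrX:11424598-11424798, plus strand: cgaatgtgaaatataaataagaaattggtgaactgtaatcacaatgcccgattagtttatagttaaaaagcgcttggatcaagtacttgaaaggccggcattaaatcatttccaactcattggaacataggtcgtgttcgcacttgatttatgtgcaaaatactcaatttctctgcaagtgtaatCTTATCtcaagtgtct

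The printed pnt summits show both kinds of site. The strongest had a single CTTATC starting 15 bp to the right of the summit and no TAATTA. The other had TAATTA starting 17 bp to the left, CTTATC starting 9 bp to the right, and GATAAG farther out at 87 bp. The printed moody and repo sequences held neither site.

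At the level of genes, 9 of 10 members had an IDR summit in the window, against 55.4% of all 13945 protein-coding genes. With the gene body alone, 5 of 10 had one (pnt, loco, moody, nrv2 and Gs2), against 18.1% of all genes. The same 5 genes had a summit within 1000 bp of one of their own transcription start sites (TSSs), against 28.2% of all genes. By the gene whose TSS is nearest to a summit, 6 members were hit, these 5 and ttk, against 27.7% of all genes. In the pooled list, 9 of 10 had a summit in the window, against 75.1% of all genes, and the same 9 had one at q under 0.01, against 63.2%. These shares are descriptions of 10 genes and no test was made of them, because the genes were chosen with results of these data known. Ranked by window length with the longest first, the members ran from 260 (pnt) to 6767 (gcm) of the 13945 genes. All 10 were thus on the longer side of the list, and a longer window has more room for a summit. Shares of genes with a summit, here and below, were not corrected for length, and its part in them was not tested.

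The replicates gave nearly the same gene count one by one. Among their highest peaks, 9, 9, 9 and 10 members had a summit in replicates 1, 2, 3 and 4, against 54.98%, 53.16%, 55.27% and 60.32% of all genes. Replicate 4 was the one with all 10, and in it the share of all genes was also highest. The member windows held 38, 39, 43 and 41 summits, a mean of 40.2 ± 2.22 (SD, n = 4).

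Windows differ in length, so summits were also counted per 10 kb of window. The 39 member summits lay in 232014 bp, or 1.68 per 10 kb. The median member had 1.71, against a median of 0.657, a mean of 1.02 and an upper quartile of 1.70 over all genes. The 1.68 pools the member windows, while the values over all genes were taken gene by gene. Gs2 was densest at 3.46 per 10 kb, above 93.5% of all genes, followed by pnt at 2.27, gcm2 at 2.12, nrv2 at 2.10 and moody at 1.90. wrapper at 1.53 and loco at 1.36 lay between the median and the upper quartile of all genes, and repo at 0.746 lay close to the median. ttk at 0.317 and gcm at 0 lay below the median.

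**Figure D1:**
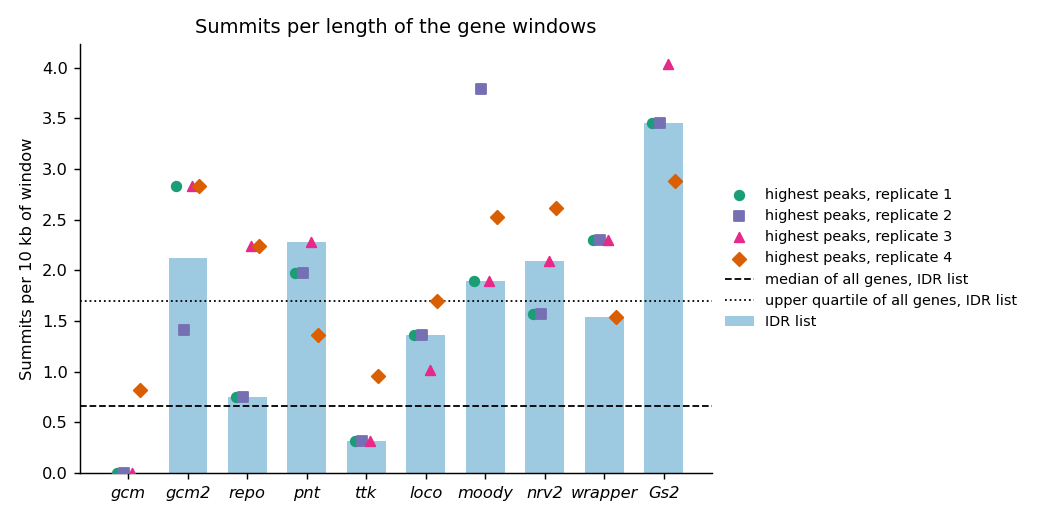
Summits per 10 kb of gene window for the 10 members (bars, IDR list; points, the highest peaks of each replicate, 4 replicates), with the median and the upper quartile of all 13945 genes in the IDR list as lines. Gs2 is highest at 3.46 per 10 kb and lies above the upper quartile of 1.70 in every replicate, while ttk is below the all-gene median of 0.657 in the IDR list and in replicates 1 to 3.

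The fate switch itself was the member without an IDR summit in its window of 5000 bp, a call that depends on the window. With 1000 bp on each side, 7 members had a summit and gcm, repo and ttk had none, against 35.8% of all genes with one. With 2000 bp, 8 had one and gcm and repo had none, against 42.0% of all genes. With 10000 bp all 10 had one, against 67.8%. gcm (FBgn0014179, dm6 chr2L:9579498-9581745, minus strand), the gene whose product sets glial against neuronal fate, had no summit in the IDR list and none in the pooled list. Replicates 2 and 3 listed none in its window even in their complete lists of 30000. Replicate 1 listed 1 summit, at rank 8949, in coding sequence of the neighbour Mtpalpha, which encodes an enzyme of mitochondrial fatty acid oxidation. Replicate 4 listed 3, the strongest at rank 6425 in an intron of Mtpalpha and the others at ranks 16929 and 18544 in intergenic DNA. No list had a summit in the gcm body, and what the window held differed between replicates.

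gcm2 (FBgn0019809, chr2L:9608562-9612706, plus strand), the paralogue that acts beside gcm, had 3 IDR summits, all past its 3′ end and none in its body. The strongest, at position 9616195, ranked 385 of 7909 and lay in the 3′ UTR of Trx2, a thioredoxin gene, 274 bp upstream of the TSS of GlcAT-S. That peak ranked 403, 437, 538 and 257 in replicates 1, 2, 3 and 4. It was therefore close to the top of all 4 lists. The second, at 9615068, ranked 1893 and lay in an intron of Trx2, and the third, at 9613492, ranked 4726 and lay in the 5′ UTR of Trx2, 78 bp from its TSS. The nearest TSS of each belonged to Trx2 or GlcAT-S, and none of the 3 was nearest to gcm2. All 3 held CTTATC and 2 held TAATTA within 100 bp.

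repo (FBgn0011701, chr3R:18236192-18239602, plus strand), the homeodomain gene expressed in almost all lateral glia, had 1 IDR summit, at 18244405 and rank 5723. It lay in an intron of the neighbour 14-3-3epsilon, 1718 bp from the TSS of that gene and 8213 bp from the start of repo. Peaks overlapping it ranked 6825, 4607, 5937 and 4527 in the 4 replicates, all in the weaker part of the 7909 highest. No list had a summit inside the repo body, and the IDR summit held neither TAATTA nor CTTATC within 100 bp. For gcm, gcm2 and repo, then, the IDR, pooled and replicate lists placed no summit in the gene body. Those bodies are short, at 2248, 4145 and 3411 bp, and only 18.1% of all genes had an IDR summit in the body. The bodies of ttk and wrapper held no IDR summit either.

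**Figure D2:**
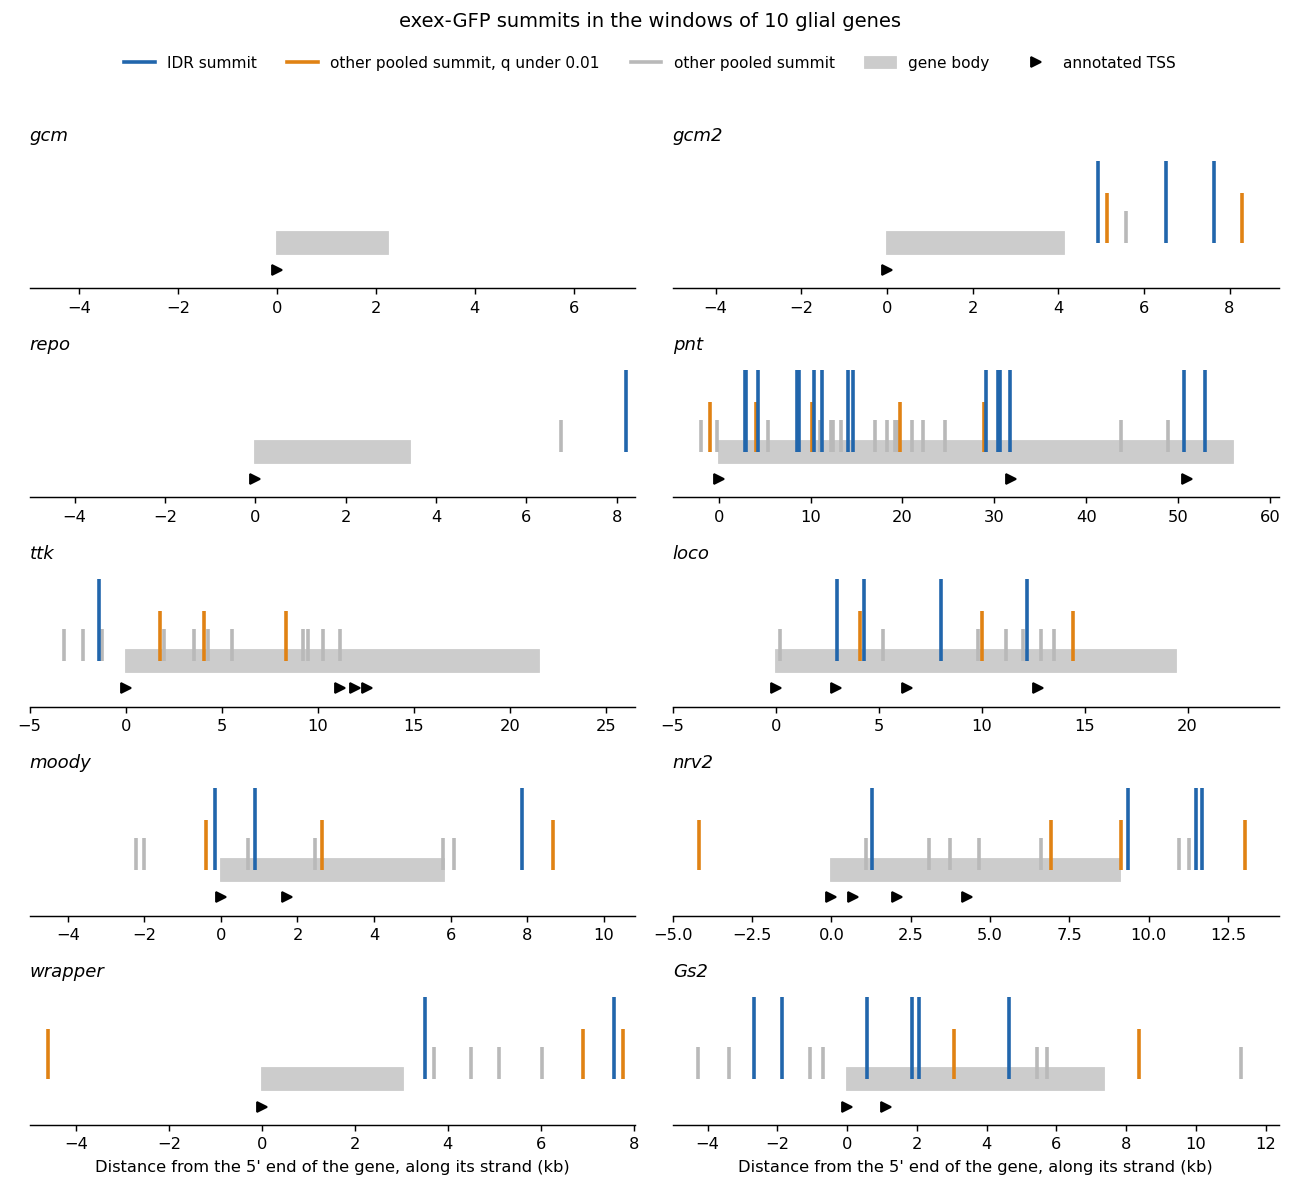
Summits of the pooled list in the windows of the 10 members, by distance in kb from the 5′ end of each gene along its strand; tall blue lines are IDR summits, orange lines other pooled summits with q under 0.01, grey lines the other pooled summits, grey bars gene bodies and triangles TSSs. The windows of gcm2, repo, ttk and wrapper have all their IDR summits outside the gene body, and 13 of the 15 pnt summits lie between its first and its second TSS.

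pnt (FBgn0003118, chr3R:23290231-23346167, minus strand), an Ets-family activator downstream of EGF receptor signalling that also acts in glial differentiation, carried the most summits of the 10. Its 15 IDR summits all lay in its own introns, in 13 called regions. Of all genes, 17 had 15 or more IDR summits in the window, or 0.122%, and by window length pnt ranked 260. The gene is 55937 bp long with 3 annotated TSSs. Of the summits, 13 lay in the 31852 bp between the first and the second TSS, 1 in the 19077 bp between the second and the third, and 1 in the 5007 bp from there to the gene's end.

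The strongest pnt summit, at 23317035, ranked 253 in the IDR list and lay 2720 bp upstream of the second TSS. It ranked 179, 314, 238 and 1024 in replicates 1, 2, 3 and 4. Replicate 4 placed it lowest and the other 3 placed it close to the top of their lists. The next was at 23343145, rank 1516, 3022 bp inside the gene from the first TSS, in a peak that ranked 2173, 1889, 891 and 2617. It shares that called region with a summit at 23343348, rank 4812, so they share the replicate ranks as well. A further pair at 23337433 and 23337636, ranks 2003 and 2998, likewise shares 1 region.

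Of the pnt summits, 2 lay within 1000 bp of a pnt TSS, 198 bp upstream of the second and 332 bp upstream of the third. Both were low in the IDR list, at ranks 6246 and 6205. All 15 pnt peaks were overlapped in the complete lists of all 4 replicates, and 8 of 15 by the highest peaks of every replicate. Counted in each replicate's own highest peaks, pnt had 13, 13, 15 and 9 summits, with replicate 4 below the others.

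ttk (FBgn0003870, chr3R:31713867-31735392, plus strand), a zinc finger repressor that holds neuronal genes off in glia, had 1 IDR summit, 1408 bp upstream of its first TSS at 31712459. It ranked 7892 of 7909, with a signal of 230.9 against 230.2 for the lowest peak in the list. Overlapping peaks ranked 10166, 12044, 5528 and 6657, so that replicates 3 and 4 had it among their highest peaks and replicates 1 and 2 did not. The pooled list held 15 ttk summits, 11 of them inside the gene body, where no IDR summit lay. Beside the IDR summit, 3 had q under 0.01 and 11 did not. The strongest summit in the ttk window ranked 6053, 7042, 5528 and 5346 in replicates 1, 2, 3 and 4. In replicates 1, 2 and 4 it lay in a ttk intron, and in replicate 3 it was the upstream one. Each replicate in turn was left out, keeping the IDR peaks that the highest peaks of all the other replicates overlapped. ttk lost its summit each time and 8 members stayed, against 43.9% to 46.1% of all genes. For ttk this was fixed by the ranks above, since replicate 1 or replicate 2 always remained. It is not a further result.

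**Figure D3:**
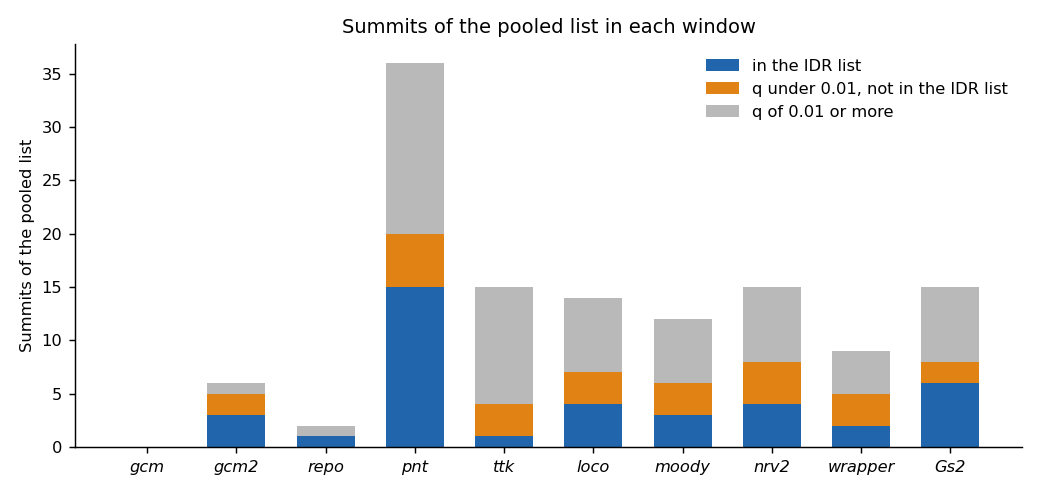
Number of pooled-list summits in each member's window, split into those in the IDR list (blue), those with q under 0.01 that are not in it (orange) and the others (grey). pnt has 36 in all, 15 of them in the IDR list, whereas ttk has 15 in all and 1 in the IDR list, and gcm has 0.

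loco (FBgn0020278, chr3R:22619968-22639387, minus strand), an RGS protein that dampens G protein signalling and is needed for glial ensheathment, had 4 IDR summits, all in its body. The strongest, at 22631351 and rank 3909, lay in an intron 1667 bp from the nearest loco TSS and ranked 3484, 3191, 5415 and 4895 in the replicates. A summit at 22636417, rank 4902, lay in a loco 5′ UTR 39 bp from a TSS, and 1 at 22627165, rank 4922, lay 531 bp upstream of another. The fourth, at 22635104, had the lowest rank, 6460, and the only TAATTA of the 4. None of them was among the 1977 strongest IDR peaks.

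moody (FBgn0025631, chrX:2044292-2050120, minus strand), the G protein coupled receptor of surface glia that loco regulates at the blood-brain barrier, had 3 IDR summits. One at 2050288, rank 1223, lay 168 bp upstream of the first moody TSS, within an intron of the overlapping gene CG4313. Its ranks were 1212, 2071, 2820 and 214 in replicates 1, 2, 3 and 4, with replicate 4 the strongest. One at 2049221, rank 1603, lay inside the gene, 899 bp from its start, and ranked 1497, 1978, 2595 and 1146. Replicate 3 placed both moody summits lower than the other replicates did. The strongest summit in the window, at 2042258 and rank 627, lay 53 bp from the TSS of Actn, the neighbour that encodes alpha-actinin, and its nearest TSS is not that of moody.

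nrv2 (FBgn0015777, chr2L:6789770-6798862, minus strand), a beta subunit of the sodium pump used as a marker of glial membranes, had 4 IDR summits. One, at 6797580 and rank 3282, lay in its own intron, 614 bp from an nrv2 TSS, and ranked 2973, 4807, 4407 and 2140. The other 3 were intergenic, past the 3′ end of nrv2, with nrv1, the adjacent gene for another beta subunit, as the nearest TSS. The strongest of them, at 6789524, ranked 693, and 629, 999, 602 and 1062 in the replicates, which places it near the front of all 4 lists. It lay 2663 bp upstream of the nrv1 TSS and also falls in the nrv1 window. The other pair, at 6787184 and 6787383, ranked 2215 and 7646. It lay 323 and 522 bp upstream of the nrv1 TSS, also in the nrv1 window. The same replicate peaks overlapped both, at ranks 8371, 1915, 1280 and 848, so replicate 1 alone had no highest peak there.

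wrapper (FBgn0025878, chr2R:22379637-22382675, plus strand), an immunoglobulin-family surface protein by which midline glia wrap commissural axons, had 2 IDR summits and none in its body. The one at 22383142, rank 4159, lay 8 bp from the TSS of CG13506, and that at 22387208, rank 4665, lay in an intron of CG13506. They ranked 4238, 5382, 5374 and 3182, and 4724, 2976, 5382 and 5131, in replicates 1, 2, 3 and 4. The order of the 2 differed between replicates, with the second ahead in replicate 2 alone.

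Gs2 (FBgn0001145, chrX:11422832-11430197, plus strand), glutamine synthetase, which turns glutamate taken up by glia into glutamine, had 6 IDR summits, all nearest to its own TSSs. Of these, 4 lay in its introns and 2 lay upstream, 2677 and 1870 bp before its first TSS. The strongest, at 11424698 and rank 851, lay 741 bp downstream of the second TSS. The peak ranked 811, 840, 631 and 3718 in replicates 1, 2, 3 and 4. Replicate 4 placed it well below the other 3, which kept it within their first 1000. Of the 6 summits, 3 lay within 1000 bp of a Gs2 TSS, and 5 of the 6 were overlapped by the highest peaks of every replicate. Of all genes, 5.21% had 6 or more IDR summits in the window.

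**Figure D4:**
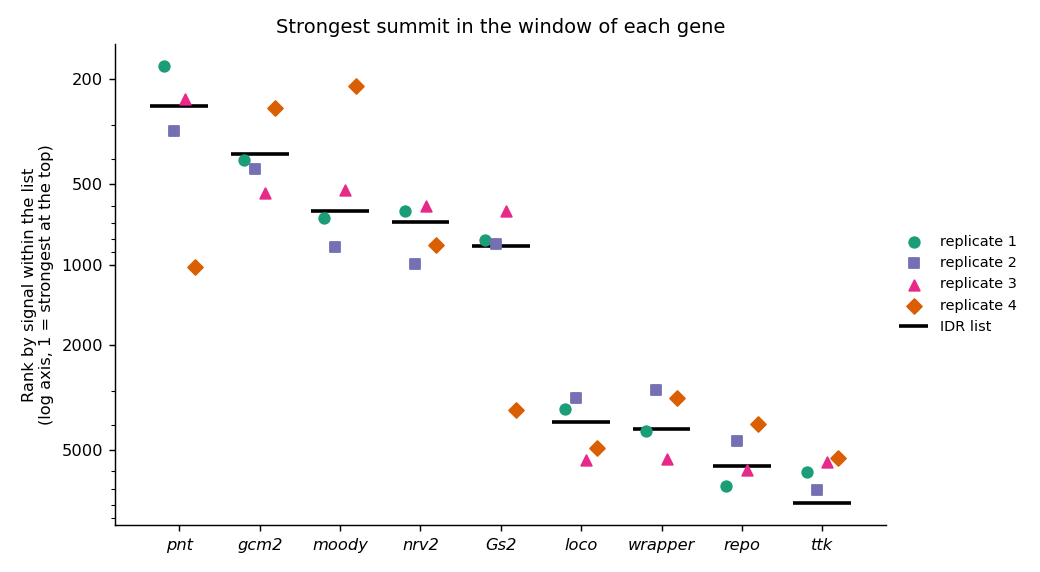
Rank of the strongest summit in the window of each of the 9 members with an IDR summit, within the IDR list (bars) and in each replicate list (points, 4 replicates), on a log axis with the strongest at the top. pnt, gcm2, moody, nrv2 and Gs2 are ahead of rank 1000 in the IDR list, and replicate 4 lies far below the other replicates for pnt (1024) and Gs2 (3532).

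By the strongest summit in the window, the order in the IDR list was pnt at 253, gcm2 at 385, moody at 627, nrv2 at 693, Gs2 at 851, loco at 3909, wrapper at 4159, repo at 5723 and ttk at 7892. The replicate ranks of neighbouring genes in this order overlapped, among the first 5 and among the last 4. The first 4 lay ahead of all of the last 4 in every replicate, since their replicate ranks ended at 1024 while those of the last 4 began at 2976. Gs2 was ahead of the last 4 in replicates 1 to 3, with 3532 in replicate 4, where the strongest peak of the window was the one at 11427482. For gcm2, moody, nrv2, wrapper and repo, the summit that set the rank in the IDR list was nearest to the TSS of another gene.

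As a group, the member summits were not the strongest of the series. Their median rank was 4159, close to the middle of the list, with 9 of 39 among the 1977 strongest peaks, in 5 members, against 26.2% of all genes with a summit that strong. Replicate support, the share of peaks overlapped by at least 1 bp by a replicate's highest peaks, was 92.3%, 87.2%, 97.4% and 79.5% for the member peaks in replicates 1, 2, 3 and 4, against 88.8%, 88.1%, 90.1% and 80.1% for all IDR peaks. The means were 89.1% ± 7.66 for the members and 86.8% ± 4.51 for all (SD, n = 4), closer to each other than the spread between replicates. All 4 replicates at once supported 26 of 39 member peaks (66.7%, 95% Wilson interval 51.0 to 79.4), against 65.3% of all IDR peaks. Intervals here treat summits as independent, and summits that share a region or a gene are not.

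Most member summits lay in introns. The count was 27 of 39 (69.2%), against 54.5% of all IDR summits, while 6 (15.4%) were intergenic, against 29.4%. Member summits were taken only from a gene body and 5000 bp on each side, a limit that all IDR summits did not have. The shares by position are therefore not of like sets. In 5′ UTRs there were 5 (12.8%), against 11.8% of all, and in coding sequence 0, against 1.20%. Within 1000 bp of any TSS there were 16 of 39 (41.0%, Wilson 27.1 to 56.6), against 54.9% of all IDR summits. In the replicates' highest peaks this share was 36.8%, 43.6%, 39.5% and 53.7%, against 53.6%, 52.5%, 55.3% and 60.6% of all summits. It was lower at the member genes in each of the 4, with the smallest gap in replicate 4. In the IDR list, the differences in introns and near a TSS rest on pnt, which gives 15 of the 39 summits, all of them intronic. With pnt left out, a comparison chosen after its values were seen, 14 of 24 member summits (58.3%) lay within 1000 bp of a TSS, above the 54.9% of all. In introns there were then 12 of 24, below the 54.5% of all. The 6 intergenic summits were then 25%, still below the 29.4% of all. In replicates 1, 2, 3 and 4 the share near a TSS without pnt was 12 of 25 (48%), 15 of 26 (57.7%), 15 of 28 (53.6%) and 22 of 32 (68.8%) summits. It was above that of all summits in replicates 2 and 4 and below it in replicates 1 and 3.

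The homeodomain core TAATTA lay within 100 bp of 8 member summits (20.5%, Wilson 10.8 to 35.5), against 19.7% of all IDR summits. It occurred in 3 genes, with 5 summits in pnt, 2 in the gcm2 window and 1 in loco. In pnt that was 33.3% of summits, against 12.5% of the 24 summits of the other members. CTTATC lay within 100 bp of 15 member summits (38.5%, Wilson 24.9 to 54.1), against 35.4% of all. It was spread over 8 genes, all but gcm and repo. Both sites lay at 3 summits and neither at 19. Both shares at the members are near those of the whole list and are not a result about these genes. The median GC content around the summits was 43.3% for the members and 38.8% for all IDR summits, and its part in these shares was not tested.

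In the replicates' own highest peaks, TAATTA lay at 15.8%, 15.4%, 16.3% and 12.2% of member summits, against 18.3%, 20.3%, 20.2% and 17.4% of all. The mean was 14.9% ± 1.85 at the members and 19.0% ± 1.41 at all summits (SD, n = 4). CTTATC lay at 36.8%, 41.0%, 37.2% and 41.5% of member summits, against 37.4%, 33.4%, 34.9% and 32.0% of all, with means of 39.1% ± 2.45 and 34.4% ± 2.31. The TAATTA share at the members was below that of all summits in each replicate, while in the IDR list it was slightly above it. The CTTATC share was above that of all summits in 3 of 4 replicates. The SDs give the spread between lists that share many peaks. They do not measure the counting error of 38 to 43 summits.

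**Figure D5:**
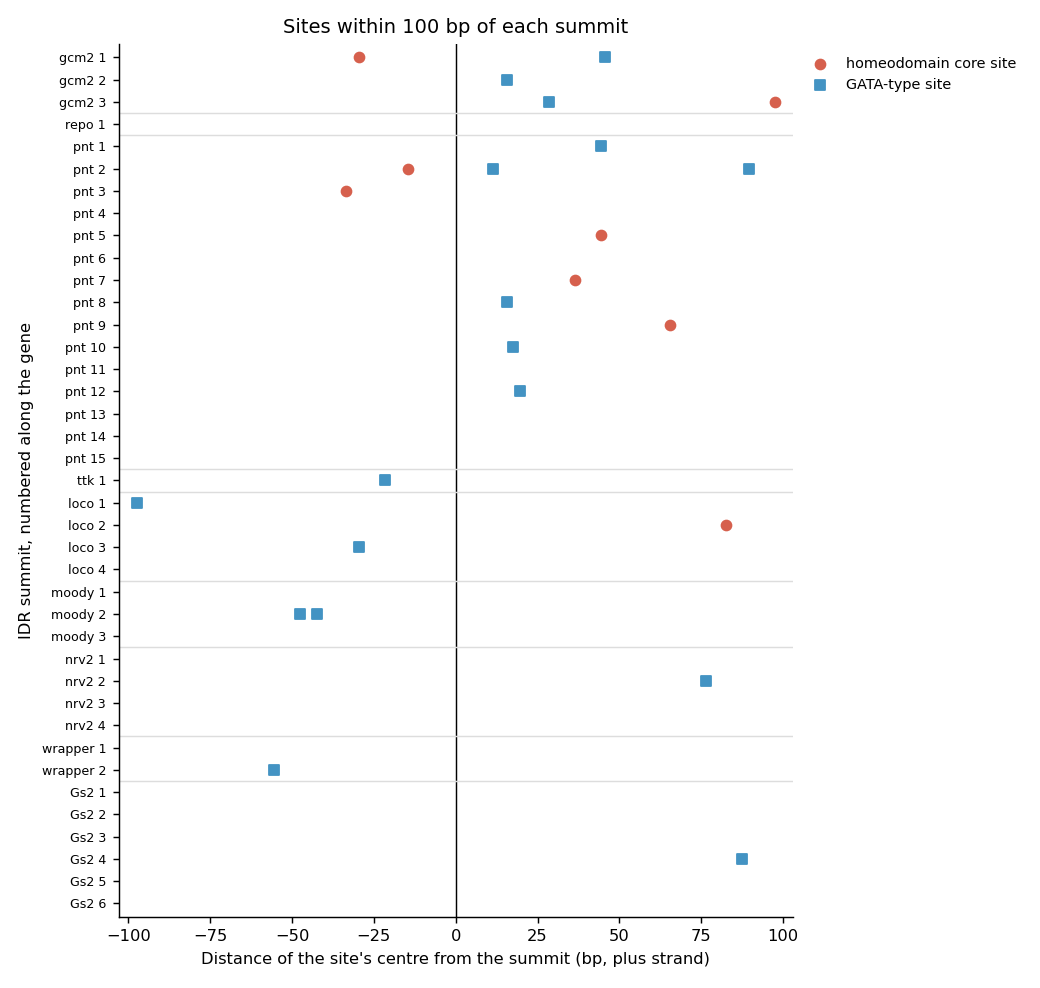
Distance in bp, along the plus strand, of each TAATTA (circles, homeodomain core site) and CTTATC (squares, GATA-type site) from the summit, for the 39 IDR summits of the member windows, numbered along each gene. TAATTA appears in the windows of 3 genes, 5 of its 8 summits being in pnt, and CTTATC in those of 8 genes.

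By the same rule, 43 other genes of glial pathways were counted, in 8 lists. Of these, 27 had an IDR summit in the window, 17 in the body and 17 within 1000 bp of an own TSS, to be read against 55.4%, 18.1% and 28.2% of all genes. Their 92 summits, 3 of them at nrv1 and counted for nrv2 as well, came to a median of 0.578 per 10 kb, against 0.657 for all genes.

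Among septate junction and barrier genes, 9 of 13 had a summit in the window and 4 in the body. Their highest ranks were 596 for Cont, in an intron of the neighbour Sfxn1-3, and 1338 for cold, 40 bp upstream of a cold TSS. Of 5 genes of the G protein signalling that moody works through, 4 had one. Gbeta13F had rank 40, but that summit lay 147 bp upstream of Gapdh2, a glycolytic enzyme gene, while Pka-C1, a protein kinase A subunit, had 9 summits with the best at rank 864 in its own intron. All 3 other sodium pump genes had a summit, with nrv1 at the shared rank of 693 and Atpalpha, the pump's catalytic subunit, at rank 1203 in its own intron among 6 summits. The 3 summits of nrv1 were all among those already counted for nrv2.

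In the list of glutamate and GABA clearance and glutamine metabolism, 2 of 5 genes had a summit. Gs1, the other glutamine synthetase gene, had 6, the best at rank 295 in an intron of ND-15, and Gdh, glutamate dehydrogenase, had 8, the best at rank 988 and 235 bp upstream of one of its own TSSs. The transporter genes Eaat1, Eaat2 and Gat had none. Of the EGF receptor and Ets regulators of pnt, 3 of 5 had a summit. aop, which encodes the Ets repressor that opposes pnt, had 9, the best at rank 269 in its own intron, with 510, 222, 141 and 158 in the replicates, and aos, a secreted inhibitor of the receptor, had its best at rank 3050. Egfr itself had none in the IDR list and 13 in the pooled list.

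Of 5 other glial surface and marker genes, 2 had a summit, axo with its best at rank 2627 and drpr, the engulfment receptor. drpr had 3 summits, 2 of them in its body. Its best, at rank 3998, lay in the 3′ UTR of PIG-Wb, 295 bp upstream of Oseg4. Of 3 genes for ttk degradation, ebi alone had any, with 4 summits in the window and 0 in its body. The best, at rank 2795, lay 53 bp upstream of CG11885, and at least 1 other lay within 1000 bp of an ebi TSS. Of 4 further genes of glial and midline transcription or guidance, 3 had a summit. sli, the midline repellent, had 7 with the best at rank 1122, and sim, the midline master regulator, had 1 at rank 1620, each in an intron of its own.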

How the data were processed

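Anti-GFP chromatin immunoprecipitation and sequencing of exex-GFP was carried out on whole embryos of 6 to 24 h, from sonicated chromatin of 200 to 800 bp per the labels. The source name puts all 4 biological replicates in 1 group, none of which was left out. It also gives the age, since the separate age field is garbled.

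According to the file lists deposited beside the samples, peaks were called for each replicate and for the pooled replicates, and the IDR list was made from these 5 lists. The deposited signal value of a peak is the authors' score, used only for ranks inside each list. The deposited q-value is on a −log10 scale and served only for counts of peaks at q under 0.01. The sources used here do not name the aligner, the peak caller or the threshold of the IDR filter, and signal tracks and the named control were not analysed here. The lists carry 0 further columns of per-sample values. All 157909 peaks lay within the chromosome ends of Release 6, and no pair of replicates shared a peak of equal position and signal. The 7909 IDR peaks were also the 7909 strongest pooled peaks.

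A summit was the peak start plus the summit offset. Genes and 19252 distinct TSSs came from Ensembl release 115 (BDGP 6.54). A summit in coding sequence was counted there first, then in a 5′ UTR, then in a 3′ UTR, then in an intron. The members were not tested against other genes, because the design has 1 group and the members and lists were chosen with earlier results of these data known. Counts stand beside the same over all genes or all IDR summits, with 95% Wilson intervals that cover counting error only. Single replicates were set against the others with Dixon's test. The counting of summits in windows was checked on simulated data. The genes named were all 10 members, the up to 2 genes of every other list with the strongest IDR summit, and the gene nearest to each member summit. Genes named outside this rule, such as the transporter genes and Egfr, were chosen after their values were seen. Alternatives were other windows, lists, overlaps, site definitions and leaving out each replicate. Leaving out pnt was added after the data were seen. Scripts ran in Python 3.11.15 with pandas 2.3.3, numpy 2.4.6 and scipy 1.17.1, and figures were drawn with matplotlib 3.10.9.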

Additional observations from a re-analysis of the deposited data

Results flagged for a closer look

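Of 38 measures compared between the 4 replicates, 8 had a replicate farther from the rest than the 95% critical value of Dixon's test for 4 values. By chance this happens in about 1 in 20 groups of continuous values. That rate does not hold for small counts with ties, and in 6 of the 8 the other 3 replicates had equal counts, so that any difference of 1 or 2 in the remaining one passes the value. Replicate 4 had 10 members with a summit among its highest peaks, against 9 in each of the others, because it listed 1 such summit in the gcm window. It also had 3 summits for ttk, against 1 in each of the others, and 2 for wrapper, against 3. Replicate 3 had 5 members with a summit in the gene body, against 6 in each of the others. Replicate 2 had 2 summits in the gcm2 window, against 4 in each of the others.

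The other measures were ranks. The strongest pnt summit ranked 1024 in replicate 4, against 179, 314 and 238 in replicates 1, 2 and 3. The strongest summit in the Gs2 window ranked 3532 in replicate 4, against 811, 840 and 631. In replicate 4 it was the peak at 11427482, and in the others the peak at 11424698, which ranked 3718 in replicate 4. Replicate 4 is the list with the fewest peaks at q under 0.01, 6947 against 12935, 11893 and 13846, and the part of this in the ranks was not tested.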

How the results depend on the processing

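With the gene body alone, 5 members and 25 summits were counted, and among the 1977 strongest IDR peaks 5 members (26.2% of all genes) and 9 summits. Pooled peaks with q under 0.01 gave 64 summits. Without 1 replicate, 8 members stayed each time and the summits numbered 27 to 31. Summits per 10 kb came to 1.89 with the body alone, 1.91, 1.80 and 1.54 with windows of 1000, 2000 and 10000 bp, 0.388 among the 1977 strongest, 2.76 in pooled peaks with q under 0.01, 1.85 in replicate 3, 1.55 with 1 summit per region and 1.16 to 1.34 without 1 replicate. Mean replicate support was 99.4% with complete lists, 59.6% with 50% reciprocal overlap, 79.5% with summits within 100 bp and 86.3% to 92.3% without 1 replicate. The share near a TSS was 23.1% within 500 bp, 53.7% in replicate 4 and 38.7% to 46.4% without 1 replicate. TAATTA was at 12.8% within 50 bp, 38.5% when TAATTG was allowed too, 15.8%, 15.4%, 16.3% and 12.2% in replicates 1, 2, 3 and 4, and 14.3% to 18.5% without 1 replicate. CTTATC was at 28.2% within 50 bp, 89.7% for its 4-base core, 41.0% in replicate 2, 41.5% in replicate 4 and 41.9% to 48.1% without 1 replicate. The shares within 50 bp, within 500 bp, for the wider site definitions and without 1 replicate have no share of all IDR summits beside them. They are not a result about these genes. For summits per 10 kb, the median over all genes was 0.893 in pooled peaks with q under 0.01 and 0.655 in replicate 3. The other alternative densities have no value over all genes beside them. With pnt left out, an alternative chosen after seeing the data, there were 24 summits, 1.45 per 10 kb, with 58.3% near a TSS, TAATTA at 12.5%, CTTATC at 41.7% and a mean support of 92.7%. Apart from the stricter rule without 1 replicate, the cause of these shifts was not tested. Of 41 other values for the ranks of the strongest summits, 25 lay within 1 SD of the replicates and 16 beyond.

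No paired analysis was possible because the labels give 1 group. The IDR filter was not rerun without a replicate, so those values rest on overlap with the highest peaks of the other replicates. Depth is unknown, and a replicate list of fixed length fills up with weaker peaks, so absence from the IDR list is not absence of binding. With 39 summits, and 15 of them from pnt, shares of summits have wide intervals.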
